A study of Mus musculus with 48 samples.

Results

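Deoxynucleotide supply was followed in 4T1 cells, a mouse mammary carcinoma line of balb/c origin, through 9 genes chosen by name: Rrm1, Rrm2, Rrm2b, Tyms, Tk1, Dut, Dck, Dctpp1 and Samhd1. These genes, and the gene lists used below, were chosen with earlier results of these data known. The study names Rrm2 and E2f8 as the proliferation regulators that differed most in expression. Each gene was read from the brightest probe set annotated to that symbol alone. All 9 were found among 18964 protein-coding genes with such a probe set, and all 9 lay among the 11565 genes at or above the median probe set intensity, which were the genes tested. RNA was measured on 48 arrays, of which 8 held the parental lines, which express GFP with firefly luciferase (4T1-GFP/fL) or mCherry with Renilla luciferase (4T1-mCh/rL), on 4 arrays each. The other 40 held 13 sub-clones grown ex vivo, with 3 arrays each and 4 for MFP tumor 1. GFP/fL cells had been injected into the mammary fat pad (MFP), and 2 sub-clones were isolated from these tumors at day 28. For the AxLN group, mCh/rL cells had been injected into the axillary lymph node, and sub-clones came from tumors 1 and 2 at days 7 and 14. The AxLN-LuM sub-clones came from lung metastases of node-injected mice (number 1 at days 14, 36 and 43, and number 5 at day 14). TV-LuM sub-clones were isolated from the lungs of mice injected by tail vein (number 1 at days 14 and 38, and number 2 at day 14), and their reporter line is not given in the sources used here. The host mice were adult Balb/c. All sub-clones had been selected in culture with 6-thioguanine, a purine analog, and harvested before confluence. Whether sub-clones of one number came from 1 mouse is not stated. The titles name separate source samples for AxLN tumor 2 at days 7 and 14 and for AxLN-LuM 1 at days 36 and 43. The MFP sub-clones carried one reporter and the AxLN and AxLN-LuM sub-clones the other, so the site and the reporter cannot be told apart between MFP and the other groups. MFP sub-clones came from day 28 and AxLN sub-clones from days 7 and 14, so site and day cannot be told apart between them either. AxLN and AxLN-LuM share only day 14.

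The 9 enzymes set the pools of the DNA building blocks. Ribonucleotide reductase, built from the large subunit Rrm1 and a small subunit, either Rrm2 or Rrm2b, turns ribonucleotides into deoxyribonucleotides. Tyms makes thymidylate de novo from the dUMP that Dut releases from dUTP, whereas Tk1 and Dck salvage thymidine and deoxycytidine that are already formed. Dctpp1 and Samhd1 work the other way and break down surplus deoxynucleotides, Dctpp1 with a preference for dCTP and Samhd1 for all of them. Rrm2, Tyms and Tk1 are textbook S phase genes under E2F control, and Rrm2b is a p53 target that serves cells outside S phase.

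The values are given as the log2 intensity of a sub-clone minus the average of the parental arrays (both lines) of its plate, called the relative level below, and the sub-clone, not the array, was the replicate. Arrays of 1 sub-clone had a SD of 0.05 to 0.11 per gene, pooled over sub-clones, against 0.18 to 0.81 between the 13 sub-clones. The widest single case was Tyms in AxLN-LuM 1 day 43, with a SD of 0.25 over its arrays (0.07 to 0.57). All 8 epithelial markers lay above the filter, with summed intensities of 12299 to 13259 on the TV-LuM arrays and 8002 to 10859 on all others. Their part in the TV-LuM comparisons was not tested. Markers of host cells were near the floor, with 1 of 10 measured leukocyte genes above the filter (Csf1r), 2 of 8 stromal genes (Col1a1 and Pdgfra), 0 of 6 endothelial genes and 1 of 5 lung epithelial genes (Foxj1). The summed stromal markers were higher on the MFP arrays (230 to 465) than on the AxLN arrays (136 to 231), and their part in the differences below was not tested.

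The labels mark 7 arrays as removed, among them every array of AxLN tumor 1 day 14 and of AxLN-LuM 5 day 14, with no reason given. Both sub-clones went against their groups. AxLN tumor 1 day 14 lay near the parental lines for most of the 9 genes, and AxLN-LuM 5 day 14 was the lowest of all 13 sub-clones for Rrm1, Rrm2, Tyms, Tk1 and Dut. The comparisons below use the 11 other sub-clones and so follow the labels. The value with all arrays is given for part of the differences, and those without it may move as well.

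**Figure D1:**
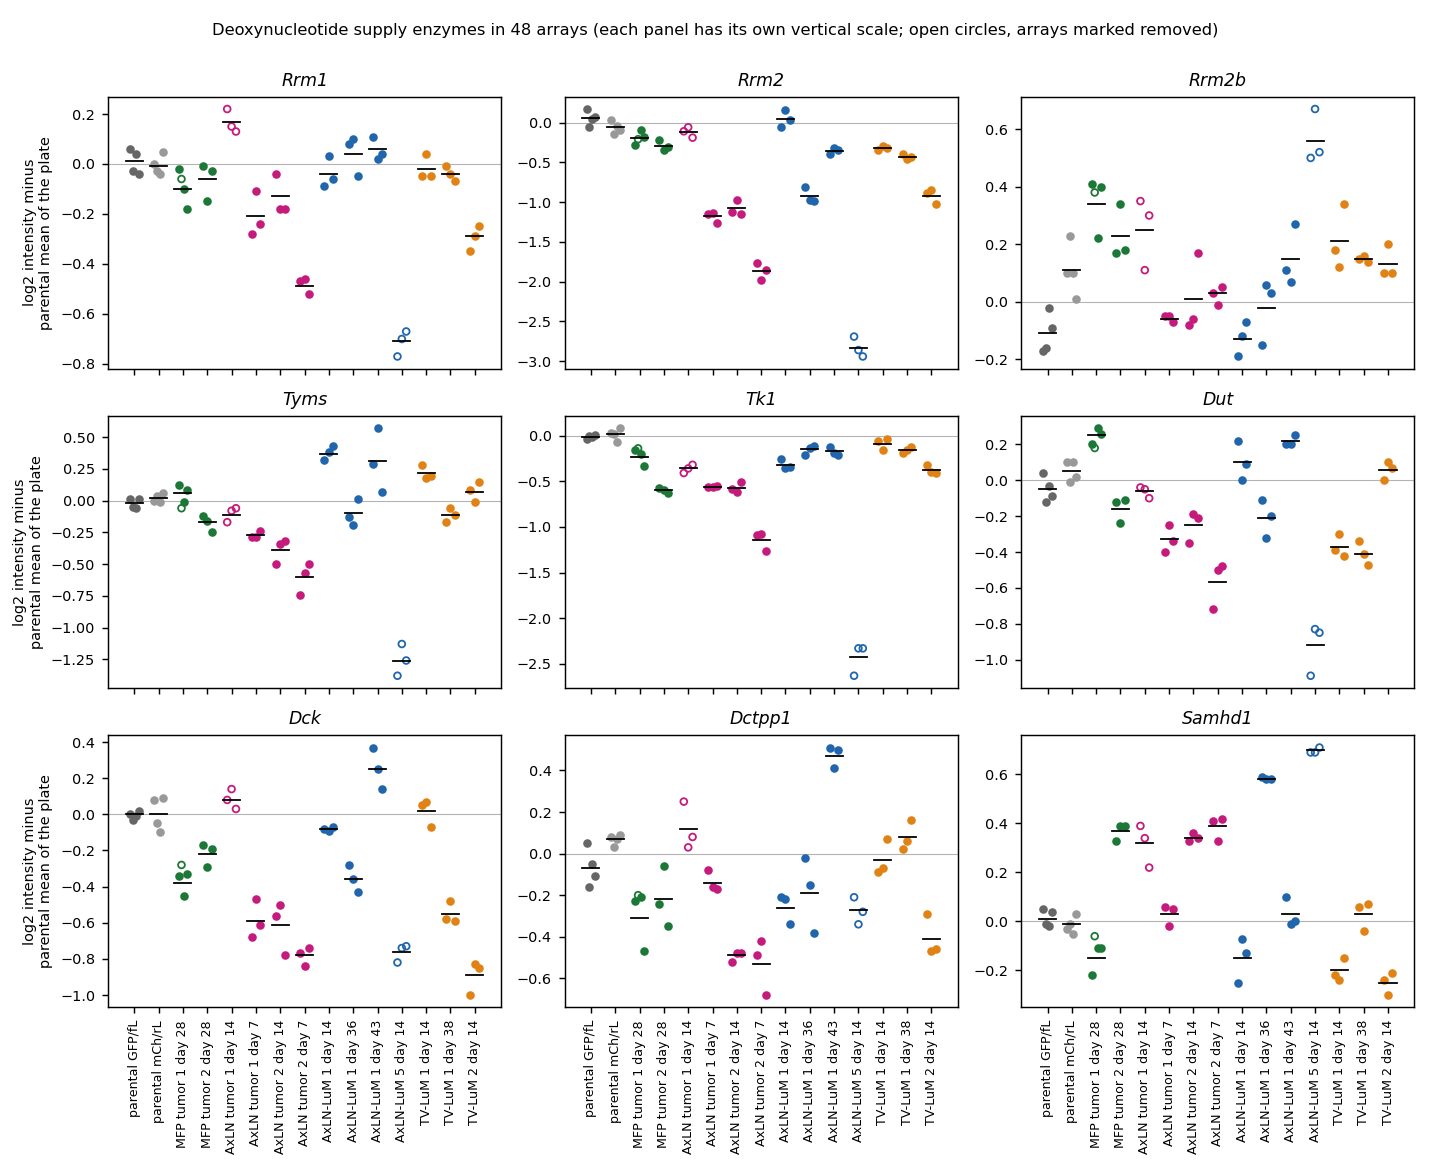
Relative level (log2 intensity minus the parental mean of the plate, vertical axis, a scale of its own in each panel) of the 9 genes on each of the 48 arrays, by parental line and sub-clone. Filled circles are arrays in use, open circles arrays marked removed, and bars the means of the arrays. The 9 arrays of the 3 AxLN sub-clones in use lie at or below -0.97 for Rrm2. So do arrays of AxLN-LuM 1 day 36 (-0.97 and -0.98) and of TV-LuM 2 day 14 (-1.03). The open circles of AxLN-LuM 5 day 14 lie lower than all of these.

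Rrm2, the subunit that carries the radical of ribonucleotide reductase, had the widest range of the 9 genes. Its relative level was -1.18, -1.87 and -1.08 in AxLN tumor 1 day 7, tumor 2 day 7 and tumor 2 day 14, against -0.19 and -0.29 in the MFP sub-clones. AxLN-LuM 1 stood at 0.05 at day 14, -0.92 at day 36 and -0.36 at day 43, and TV-LuM at -0.32, -0.43 and -0.92. All 3 AxLN sub-clones in use were thus below every MFP, AxLN-LuM and TV-LuM sub-clone in use. In deposited units the AxLN sub-clones had mean intensities of 488.2, 282.5 and 486.4, where the parental lines had 1112.7 (GFP/fL) and 1025.9 (mCh/rL). The group means were -1.38 ± 0.43 (SD, n = 3) in AxLN, -0.24 ± 0.07 (n = 2) in MFP, -0.41 ± 0.49 (n = 3) in AxLN-LuM and -0.56 ± 0.32 (n = 3) in TV-LuM.

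AxLN differed from the mean of AxLN-LuM and MFP by -1.05 for Rrm2 (SE 0.25), which is 2.07-fold lower, with an unadjusted p of 0.0032 and a Benjamini-Hochberg adjusted p of 0.28 in limma over all genes tested, and so was not called. The difference was -1.14 (SE 0.31, adjusted p = 0.69) against MFP alone and 0.97 (SE 0.28, adjusted p = 0.31) for AxLN-LuM over AxLN. It held its direction on both plates, at -0.82 on plate 1 and -1.22 on plate 2 for AxLN against the mean of both groups, and each plate had at least 1 sub-clone of each group. Leaving out each sub-clone in turn gave -1.199 to -0.807. With plate as a covariate Rrm2 was called in this comparison (adjusted p = 0.0433). That fit also had more units, since MFP tumor 1 and the parental lines counted once per plate, so the call cannot be laid to the plate alone. With arrays as replicates and the sub-clone as a random block Rrm2 was called likewise (adjusted p = 0.00135). With all arrays, those marked removed included, the difference was -0.433, and it was -0.819 against MFP alone and 0.047 for AxLN-LuM over AxLN.

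The large subunit Rrm1, which binds substrate and the allosteric nucleotides, had a much smaller range. Its relative level was -0.21, -0.49 and -0.13 in the AxLN sub-clones (tumor 1 day 7, tumor 2 day 7, tumor 2 day 14), -0.10 and -0.06 in MFP, -0.04, 0.04 and 0.06 in AxLN-LuM 1 at days 14, 36 and 43, and -0.02, -0.04 and -0.29 in TV-LuM. AxLN lay below MFP and AxLN-LuM without overlap, but the difference from their mean was only -0.25 (SE 0.11, adjusted p = 0.47). AxLN-LuM exceeded AxLN by 0.30 for Rrm1 (SE 0.13, adjusted p = 0.41), and by 0.002 with all arrays. Rrm2b, the p53-inducible small subunit, did not share the pattern of Rrm2. It stood at -0.06, 0.03 and 0.01 in AxLN, 0.34 and 0.23 in MFP, -0.13, -0.02 and 0.15 in AxLN-LuM and 0.21, 0.15 and 0.13 in TV-LuM. AxLN and MFP did not overlap for Rrm2b, with a difference of -0.29 (SE 0.13, adjusted p = 0.71). Rrm2b was also the member that differed most between the parental lines, where mCh/rL was 0.22 above GFP/fL (SE 0.06, adjusted p = 0.063), and relative to their own parental line AxLN minus MFP became -0.513.

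Thymidylate has 2 sources, and both enzymes had their lowest group mean in AxLN. Tyms, which methylates dUMP, stood at -0.27, -0.60 and -0.39 in AxLN tumor 1 day 7, tumor 2 day 7 and tumor 2 day 14, at 0.06 and -0.17 in MFP, at 0.37, -0.10 and 0.31 in AxLN-LuM 1 at days 14, 36 and 43, and at 0.22, -0.11 and 0.07 in TV-LuM. The AxLN sub-clones were below all 8 others in use. AxLN-LuM exceeded AxLN by 0.61 for Tyms (SE 0.17, 1.53-fold, unadjusted p = 0.0062, limma adjusted p = 0.29), and AxLN minus the mean of AxLN-LuM and MFP was -0.49 (SE 0.15, adjusted p = 0.33). With all arrays these became 0.174 and -0.223. Tk1, the cytosolic thymidine kinase, was below the parental mean in all 13 sub-clones. It stood at -0.56, -1.14 and -0.57 in AxLN, -0.23 and -0.60 in MFP, -0.32, -0.15 and -0.17 in AxLN-LuM and -0.09, -0.16 and -0.38 in TV-LuM. MFP tumor 2 lay among the AxLN values, so that AxLN and MFP overlapped for Tk1, whereas AxLN-LuM and TV-LuM did not overlap with AxLN. The difference was 0.54 (SE 0.19, adjusted p = 0.36) for AxLN-LuM over AxLN and 0.55 (SE 0.17, adjusted p = 0.24) for TV-LuM over AxLN, which was the lowest adjusted p of any member in a comparison of sub-clone groups. With all arrays the first turned to -0.109, and the second was 0.451.

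Dut, which hydrolyzes dUTP and thereby keeps uracil out of DNA, stood at -0.33, -0.57 and -0.25 in AxLN, 0.25 and -0.16 in MFP, 0.10, -0.21 and 0.22 in AxLN-LuM and -0.37, -0.41 and 0.06 in TV-LuM. AxLN was below MFP and AxLN-LuM without overlap, and 2 of 3 TV-LuM sub-clones lay within the AxLN range. The difference of AxLN from the mean of AxLN-LuM and MFP was -0.42 for Dut (SE 0.15, unadjusted p = 0.025, adjusted p = 0.39), and -0.219 with all arrays. AxLN-LuM over AxLN was 0.42 (SE 0.17, adjusted p = 0.40), and 0.099 with all arrays. Dck, which phosphorylates deoxycytidine and several nucleoside drugs, stood at -0.59, -0.78 and -0.61 in AxLN, -0.38 and -0.22 in MFP, -0.08, -0.36 and 0.25 in AxLN-LuM and 0.02, -0.55 and -0.89 in TV-LuM. Again AxLN was below MFP and AxLN-LuM without overlap, but TV-LuM 2 day 14 had the lowest Dck of all 13 sub-clones and TV-LuM 1 day 14 one of the highest. AxLN-LuM exceeded AxLN by 0.60 for Dck (SE 0.17, 1.51-fold, unadjusted p = 0.0073, adjusted p = 0.31), and by 0.237 with all arrays.

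Of the 2 clearing enzymes, Dctpp1, which acts on dCTP, stood at -0.14, -0.53 and -0.49 in AxLN, -0.31 and -0.22 in MFP, -0.26, -0.19 and 0.47 in AxLN-LuM and -0.03, 0.08 and -0.41 in TV-LuM, so that the groups overlapped, and AxLN differed from the mean of AxLN-LuM and MFP by -0.26 (SE 0.19, adjusted p = 0.61). Samhd1, the triphosphohydrolase that empties deoxynucleotide pools, was the only member with a higher AxLN mean than the mean of AxLN-LuM and MFP. It stood at 0.03, 0.39 and 0.34 in AxLN, -0.15 and 0.37 in MFP, -0.15, 0.58 and 0.03 in AxLN-LuM and -0.20, 0.03 and -0.25 in TV-LuM. The MFP and AxLN-LuM sub-clones held both low and high Samhd1 values, and AxLN differed from the mean of both others by 0.12 (SE 0.20, adjusted p = 0.83). Over all 13 sub-clones Samhd1 can be read as levels, with 4 from -0.25 to -0.15, 3 at 0.03 and 6 from 0.32 to 0.70, and arrays did not overlap between neighbors across these gaps. Arrays also did not overlap between 0.39 and 0.58 or between 0.58 and 0.70, so these gaps alone do not set the levels. No AxLN sub-clone was in the lowest level and no TV-LuM sub-clone in the highest, and TV-LuM minus AxLN was -0.39 (SE 0.20, adjusted p = 0.43), or -0.506 to -0.327 without 1 sub-clone each.

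The promoter windows of the 6 genes that lay below AxLN-LuM in AxLN without overlap are shown because these members were low in the same sub-clones. Of the 9 genes, 8 matched the RefSeq promoter table (GRCm38.p6), each with 1 window of 250 bases before to 50 after the annotated start, and Rrm2b did not. Windows are written 5′ to 3′ on the strand of the gene, and capitals mark matches to TTTNNCGC (E2F), CCAAT (NF-Y) and GGGCGG (Sp1), searched on both strands. TTTGAA (CHR) was searched too and is not in capitals. They lie at chr12:24708004-24708303 (Rrm2, plus strand), chr7:102441445-102441744 (Rrm1, plus), chr5:30073576-30073875 (Tyms, minus), chr11:117825965-117826264 (Tk1, minus), chr2:125247265-125247564 (Dut, plus) and chr5:88764763-88765062 (Dck, plus).
Rrm2: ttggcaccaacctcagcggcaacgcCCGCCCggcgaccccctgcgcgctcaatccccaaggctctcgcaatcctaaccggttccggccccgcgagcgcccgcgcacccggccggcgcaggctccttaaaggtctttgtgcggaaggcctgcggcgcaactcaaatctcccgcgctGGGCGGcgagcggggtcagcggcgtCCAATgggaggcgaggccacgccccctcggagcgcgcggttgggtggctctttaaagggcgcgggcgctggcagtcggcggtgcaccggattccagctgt
Rrm1: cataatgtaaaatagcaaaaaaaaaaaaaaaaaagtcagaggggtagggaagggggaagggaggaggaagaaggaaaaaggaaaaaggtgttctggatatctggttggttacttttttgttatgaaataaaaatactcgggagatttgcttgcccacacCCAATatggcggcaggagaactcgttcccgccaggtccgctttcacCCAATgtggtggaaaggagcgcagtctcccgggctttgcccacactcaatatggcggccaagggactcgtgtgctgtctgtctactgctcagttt
Tyms: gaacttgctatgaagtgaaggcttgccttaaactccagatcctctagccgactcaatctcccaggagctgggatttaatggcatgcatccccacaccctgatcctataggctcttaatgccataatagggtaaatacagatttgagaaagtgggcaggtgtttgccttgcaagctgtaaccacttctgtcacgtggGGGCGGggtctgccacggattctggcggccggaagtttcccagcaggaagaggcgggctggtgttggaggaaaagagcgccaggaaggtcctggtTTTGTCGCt
Tk1: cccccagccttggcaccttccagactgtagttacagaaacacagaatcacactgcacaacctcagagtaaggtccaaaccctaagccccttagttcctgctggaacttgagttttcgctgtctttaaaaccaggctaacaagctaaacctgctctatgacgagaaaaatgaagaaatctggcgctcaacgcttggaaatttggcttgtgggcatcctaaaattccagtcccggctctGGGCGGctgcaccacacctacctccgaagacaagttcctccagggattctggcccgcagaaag
Dut: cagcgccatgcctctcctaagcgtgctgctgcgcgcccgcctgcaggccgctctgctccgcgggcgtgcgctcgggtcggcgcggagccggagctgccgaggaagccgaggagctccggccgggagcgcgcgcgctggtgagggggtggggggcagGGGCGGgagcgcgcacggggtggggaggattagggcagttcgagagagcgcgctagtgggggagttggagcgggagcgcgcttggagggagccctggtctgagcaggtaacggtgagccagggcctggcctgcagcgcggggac
Dck: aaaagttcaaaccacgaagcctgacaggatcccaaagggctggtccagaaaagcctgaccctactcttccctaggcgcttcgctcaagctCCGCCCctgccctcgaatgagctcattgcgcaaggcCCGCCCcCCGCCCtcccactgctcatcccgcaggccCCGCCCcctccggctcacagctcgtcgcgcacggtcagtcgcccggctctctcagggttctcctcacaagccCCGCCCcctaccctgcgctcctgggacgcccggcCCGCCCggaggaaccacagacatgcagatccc
Rrm2 holds CCAAT at -50 to -46 from the start, with GGGCGG at -75 and, on the minus strand, at -225, and Rrm1 holds CCAAT at -91 and -45. Tyms has the only TTTNNCGC match of the 8 windows, at 42 to 49 after the start, and GGGCGG at -54. Tk1 and Dut hold GGGCGG alone, at -13 and -94, and Dck holds it 6 times on the minus strand. Dck also has the only TTTGAA match of the 8 windows, at -245 to -240 on the minus strand. No match overlapped another. Among 27025 genes of the table, 5.9% had TTTNNCGC, 20.2% TTTGAA, 41.1% CCAAT and 38.2% GGGCGG in at least 1 window, so CCAAT and GGGCGG are common. A match is a description of the letters only.

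No gene passed an adjusted p under 0.05 in any comparison of sub-clones with limma, which is 0% of 11565 genes each time, and no member was called. At an unadjusted p under 0.05 there were 804 genes for AxLN minus MFP (6.95%), 1376 for AxLN-LuM minus AxLN (11.9%), 464 for AxLN-LuM minus MFP (4.01%) and 1280 for AxLN minus the mean of both (11.1%). The members below that unadjusted p numbered 1 of 9 (Rrm2, lower), 6 of 9 (Rrm1, Rrm2, Tyms, Tk1, Dut and Dck, all higher), 0 of 9 and 5 of 9 (Rrm2, Tyms, Tk1, Dut and Dck, all lower). AxLN was the lower group for 8 of 9 members against the mean of AxLN-LuM and MFP, with a median difference of -0.42, where the median over all genes was -0.02. For AxLN-LuM minus AxLN the median was 0.42 over the members and 0.02 over all genes. These comparisons share the 3 AxLN sub-clones and are not independent of each other. The members were chosen with earlier results of these data known, which also bears on these counts.

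The sub-clones of AxLN lay wholly below those of MFP for 6 of 9 members (Rrm1, Rrm2, Rrm2b, Tyms, Dut and Dck), where 17.7% of all genes did so. AxLN-LuM lay wholly above AxLN for 6 of 9 (Rrm1, Rrm2, Tyms, Tk1, Dut and Dck), against 10.1% of all genes. AxLN lay below both groups for 5 of 9 (Rrm1, Rrm2, Tyms, Dut and Dck), against 5.85%. With the 2 sub-clones marked removed, 0 of 9 members were without overlap in each of these comparisons. Of all genes, 7.31%, 0.7% and 0.199% still were in these directions, so 0 of 9 is near the background. Since the members were chosen with earlier results of these data known, their shares beside those of all genes are no independent test. Adding AxLN tumor 1 day 14 alone left a difference of -0.737 for Rrm2 between AxLN and the mean of both groups, and adding AxLN-LuM 5 day 14 alone left -0.749. On plate 1, which held 1 AxLN sub-clone in use, 7 of 9 members had the pooled direction in this comparison, and on plate 2 all 9 did.

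**Figure D2:**
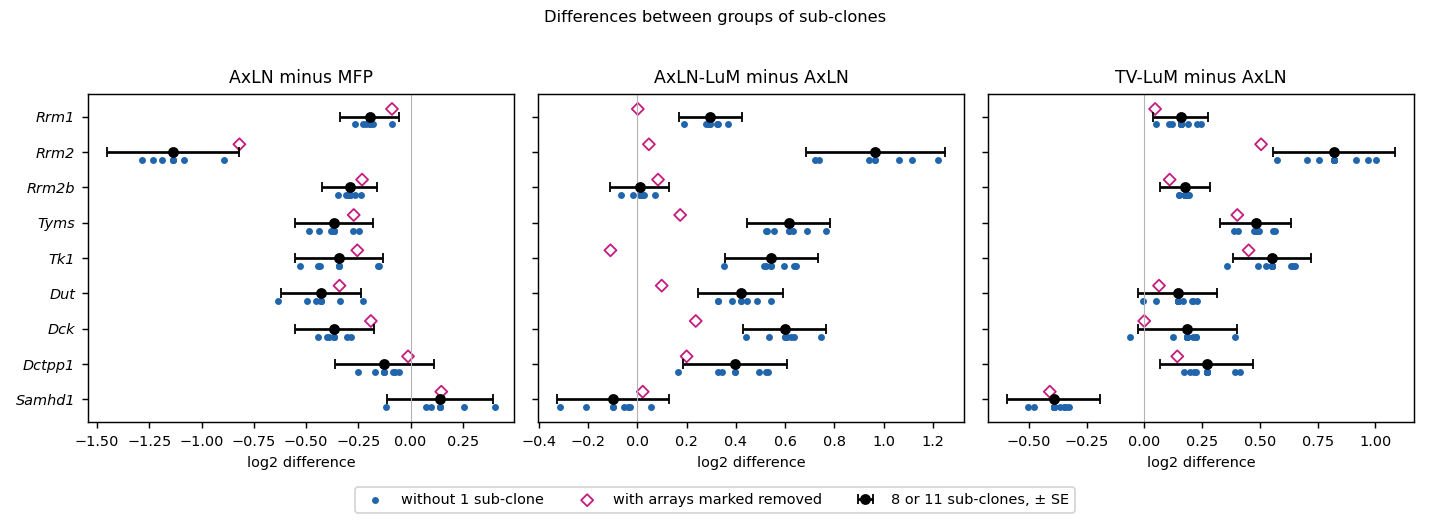
Difference in relative level (horizontal axis, log2) for the 9 genes in AxLN minus MFP, AxLN-LuM minus AxLN and TV-LuM minus AxLN. Black circles with bars are limma estimates ± SE, blue dots the estimates without 1 sub-clone each, and open diamonds those with all arrays marked removed. Rrm2 has the largest difference in all 3 panels, and its diamond in the middle panel lies near 0, at 0.047.

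AxLN-LuM lay wholly above MFP for Rrm1 and wholly below it for Rrm2b, 1 of 9 members each way, where 7.37% and 7.44% of all genes did so. Differences ran from -0.28 for Rrm2b (SE 0.13) to 0.27 for Dctpp1 (SE 0.24), Rrm2 differed by -0.17 (SE 0.31), and adjusted p was 1 for each member. In this comparison 464 genes had an unadjusted p under 0.05 and 0 of 9 members did. In TV-LuM, which grew from cells injected into the blood, Rrm2, Rrm2b, Tyms and Tk1 lay wholly above AxLN (4 of 9 members, against 11.1% of all genes). Without the parental baseline Rrm2, Rrm2b and Tk1 did (3 of 9, against 10.4%). With the sub-clones marked removed 0 of 9 did, against 5.83%, which is near the background. Rrm2 was 0.82 higher (SE 0.27, 1.77-fold, unadjusted p = 0.01, adjusted p = 0.26) and Tyms 0.48 higher (SE 0.15, adjusted p = 0.26), while the difference was 0.19 for Dck (SE 0.21) and 0.14 for Dut (SE 0.17). Including AxLN tumor 1 day 14, the Rrm2 mean of AxLN was -1.06 instead of -1.38, against -0.56 in TV-LuM. In this comparison 1537 genes had an unadjusted p under 0.05 (13.3%) and 3 of 9 members did, all higher (Rrm2, Tyms and Tk1). TV-LuM and AxLN-LuM overlapped for all 9 members, where 5.51% of all genes lay wholly higher and 6.15% wholly lower in TV-LuM, so 0 of 9 is near the background. Their differences ran from -0.41 for Dck (SE 0.21, adjusted p = 0.46) to 0.16 for Rrm2b (SE 0.11, adjusted p = 0.57), and 1388 genes (12%) but 0 of 9 members had an unadjusted p under 0.05.

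Against the parental lines, the 4 sub-clone groups together differed by -0.65 for Rrm2 (SE 0.25, unadjusted p = 0.025, limma adjusted p = 0.67) and by -0.40 for Tk1 (SE 0.16, unadjusted p = 0.028, adjusted p = 0.67). These were 2 of 9 members with an unadjusted p under 0.05, where 800 genes (6.92%) had one. Passage through the mouse and selection with 6-thioguanine cannot be told apart in this comparison. Between the parental lines themselves 1485 genes were called (12.8%), 718 higher and 767 lower in mCh/rL, and 0 of 9 members. Apart from Rrm2b, the members differed between the 2 lines by -0.12 (Rrm2, SE 0.07) to 0.13 (Dctpp1, SE 0.06). The arrays of a line are cultures, so these p-values measure the spread between cultures.

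The 2 sub-clones marked removed are described here for themselves. AxLN-LuM 5 day 14 had relative levels of -2.83 for Rrm2, -2.43 for Tk1, -1.26 for Tyms, -0.92 for Dut, -0.76 for Dck, -0.71 for Rrm1 and -0.27 for Dctpp1, and it had the highest Samhd1 (0.70) and Rrm2b (0.56) of the 13. Its Rrm2 intensities were 159.1, 141.9 and 134.5. AxLN tumor 1 day 14 stood at -0.12 for Rrm2, -0.36 for Tk1, -0.11 for Tyms, -0.06 for Dut, 0.08 for Dck, 0.17 for Rrm1, 0.12 for Dctpp1, 0.25 for Rrm2b and 0.32 for Samhd1. The first thus had lower values than every AxLN sub-clone in use for Rrm1, Rrm2, Tyms, Tk1 and Dut, and the second had higher values than every AxLN sub-clone in use for Rrm1, Rrm2, Tyms, Tk1, Dut and Dck. With them, the Rrm2 mean was -1.06 ± 0.72 (n = 4) in AxLN and -1.02 ± 1.27 (n = 4) in AxLN-LuM.

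Over all 13 sub-clones the order of Rrm2 ran from AxLN-LuM 5 day 14 through the 3 AxLN sub-clones in use, TV-LuM 2 day 14 and AxLN-LuM 1 day 36 (both -0.92) to AxLN-LuM 1 day 14 at 0.05. Arrays of neighbors in this order overlapped in all but 4 of 12 steps. The fold between the highest and the lowest sub-clone was 7.34 for Rrm2, 5.07 for Tk1 and 3.10 for Tyms, and from 1.61 (Rrm2b) to 2.26 (Dut) for the others. For Rrm2, Tk1 and Tyms the lowest was AxLN-LuM 5 day 14, which is marked removed. Over the 11 sub-clones in use Rrm2 ran from -1.87 to 0.05, Tk1 from -1.14 to -0.09 and Tyms from -0.60 to 0.37. Dck ran from -0.89 to 0.25 there. By day of isolation, Rrm2 was lower in the day 7 than in the day 14 sub-clone under both node tumor numbers. It stood at -1.18 and -0.12 under number 1 (the day 14 arrays are marked removed) and at -1.87 and -1.08 under number 2. Rrm1, Tyms, Tk1, Dut and Dck were also lower at day 7 in both. TV-LuM 1 stood at -0.32 for Rrm2 at day 14 and at -0.43 at day 38. Tumors were excised to make the sub-clones, so each day is a separate sub-clone and these values are not a time course.

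Other members were set against Rrm2 over the 13 sub-clones, in 8 relations with 100000 permutations each and Benjamini-Hochberg adjustment over the 8. Pearson's r was 0.91 for Tyms (permutation p = 0.0001, adjusted 0.00068, Spearman's rho 0.71) and 0.90 for Rrm1 (permutation p = 0.00017, adjusted 0.00068, rho 0.73). It was 0.88 for Tk1 (permutation p = 0.00076, adjusted 0.0019), with a rho of 0.51 that did not pass (adjusted p = 0.13 by permutation). Dut had r of 0.80 (adjusted p = 0.0019 by permutation, rho 0.69) and Dck 0.70 (adjusted p = 0.0084 by permutation, rho 0.77). Among the 11565 genes ranked by r with Rrm2, Dut was the 331st and Dck the 691st, so such r values were shared by many other genes. For the clearing enzymes and the second small subunit r was 0.43 for Dctpp1 (adjusted p = 0.16 by permutation, rho 0.41), -0.61 for Samhd1 (adjusted p = 0.028 by permutation, with a rho of -0.43 that did not pass, adjusted p = 0.19) and -0.30 for Rrm2b (adjusted p = 0.31 by permutation, rho 0.14). Without the 2 sub-clones farthest from the median of Rrm2, AxLN-LuM 5 day 14 and AxLN tumor 2 day 7, r became 0.63 for Tyms, 0.58 for Rrm1, 0.37 for Tk1, 0.42 for Dut, 0.70 for Dck and -0.25 for Samhd1, and no relation passed. Leaving out the extremes also narrows the range of Rrm2, so this cannot decide whether the relations rest on those sub-clones. The r of Dck was the same without them, with an adjusted permutation p of 0.16. Over the 11 sub-clones not marked removed, r passed for Tyms (0.83), Rrm1 (0.77), Tk1 (0.74) and Dck (0.70), with adjusted permutation p of 0.011, 0.025, 0.03 and 0.032. Dut (0.62) and Samhd1 (-0.49) did not pass there, and no rho did. Within plate 1 r was 0.67 for Tyms, 0.52 for Rrm1, 0.18 for Tk1, 0.61 for Dut, 0.82 for Dck and -0.32 for Samhd1, and none passed in exact permutation tests. Within plate 2, which held AxLN-LuM 5 day 14 and AxLN tumor 2 day 7, r was 0.94 for Tyms, 0.93 for Rrm1, 0.96 for Tk1, 0.87 for Dut and -0.85 for Samhd1, with adjusted exact permutation p of 0.013, 0.013, 0.0095, 0.013 and 0.022, and 0.55 for Dck (adjusted exact p = 0.27). Sub-clones of a group share their site, so the points are not independent of the groups. Rrm2 and the other members were chosen with earlier results of these data known, so these permutation tests are not independent of that choice.

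**Figure D3:**
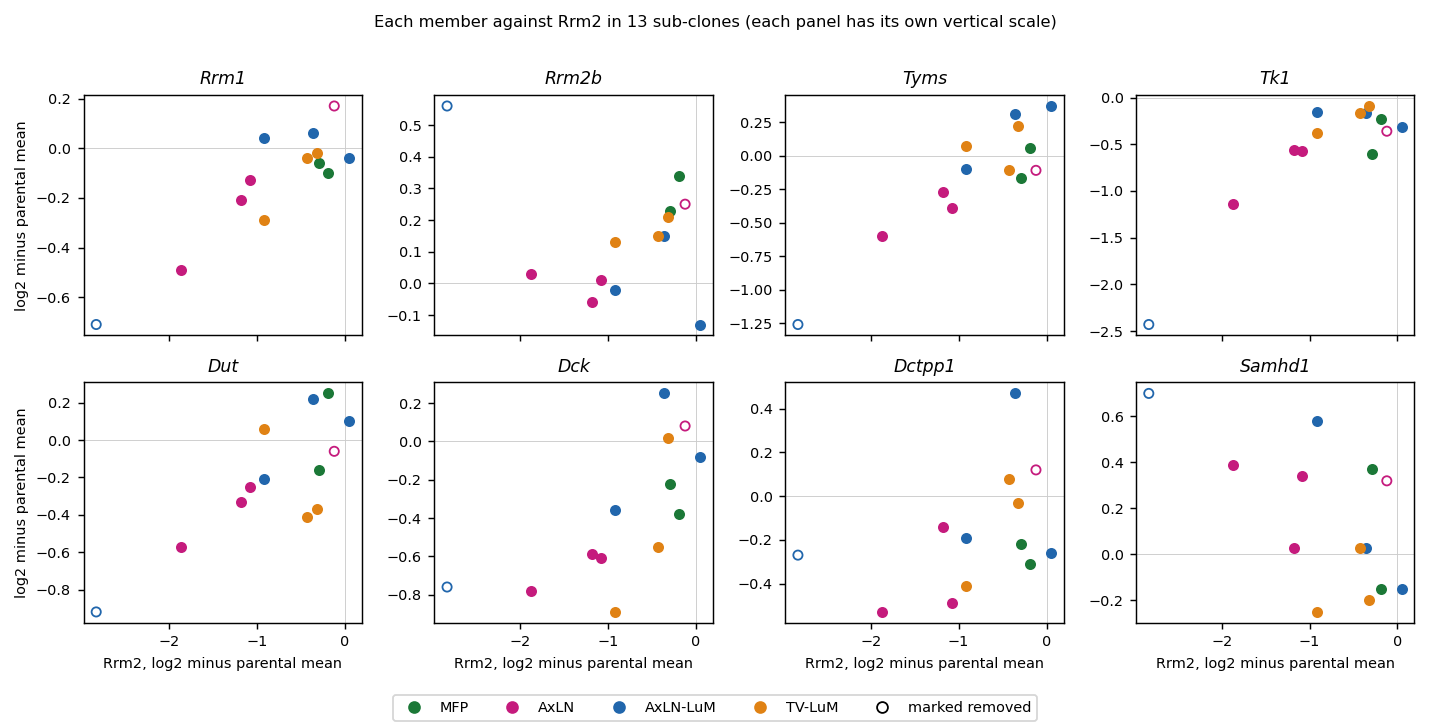
Relative level of each other member (vertical axis, log2 minus the parental mean, a scale of its own in each panel) against that of Rrm2 (horizontal axis) in 13 sub-clones, colored by group, with sub-clones marked removed as open circles. Tyms, Rrm1, Tk1 and Dut run from low to high with Rrm2, with AxLN-LuM 5 day 14 at the far left at -2.83, whereas Rrm2b and Samhd1 are highest there.

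The genes most like Rrm2 in the 13 sub-clones, of 11565, were Melk (r = 0.983), a kinase of dividing cells, Tuba1c (0.971), an alpha-tubulin, Pgd (0.969), a dehydrogenase of the pentose phosphate pathway, Pclaf (0.968), a PCNA-binding factor, and Troap (0.965), a spindle protein. Among genes ranked by likeness to Rrm2, Tyms was the 82nd, Rrm1 the 98th and Tk1 the 133rd. Dut was the 331st, Dck the 691st, Dctpp1 the 2143rd, Rrm2b the 7993rd and Samhd1 the 10366th. For Tyms they were Fdxacb1 (0.971), Rfc2 (0.964), a subunit of the clamp loader, Srrt (0.962), Slf1 (0.962) and Mad1l1 (0.960), a spindle checkpoint protein. For Samhd1 they were Ap2a2 (0.942), a clathrin adaptor subunit, Kdm3b (0.927), a histone demethylase, Coro7 (0.926), Fiz1 (0.921) and Tead1 (0.917), a Hippo pathway transcription factor. These r values describe 13 shared points and were not tested.

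Of 39 other S phase genes 36 were measured, and 36 of 36 were lower in AxLN than in the mean of AxLN-LuM and MFP, with a median difference of -0.39, where 52.7% of all genes were lower. An unadjusted p under 0.05 was reached by 17 of the 36 (678 of all 11565 genes were lower at that p), and 0 were called by limma. The largest differences were in E2f8 (-1.10, SE 0.27, adjusted p = 0.28), a repressor of the E2F family, Cdc6 (-1.01, SE 0.21), which loads the replicative helicase, Tipin (-0.69, SE 0.17) and Clspn (-0.68, SE 0.22), both of the replication checkpoint. The mean of the 36 genes was -0.32, -0.71 and -0.34 in the 3 AxLN sub-clones, 0.06 and -0.19 in MFP, -0.03, -0.14 and 0.04 in AxLN-LuM 1, and -0.02, -0.31 and -0.35 in TV-LuM. TV-LuM 1 day 38 and TV-LuM 2 day 14 thus lay at the level of 2 of the AxLN sub-clones for the S phase mean. Their Rrm2 means lay above all 3, but arrays of TV-LuM 2 day 14 (-0.92) overlapped with those of AxLN tumor 2 day 14 (-1.08). The sub-clones marked removed went against their groups here too. Their S phase mean was -0.04 in AxLN tumor 1 day 14 and -0.84 in AxLN-LuM 5 day 14. Over 13 sub-clones r with this mean was 0.92 for Rrm2, 0.90 for Rrm1, 0.89 for Tyms, 0.85 for Tk1, 0.83 for Dut, 0.79 for Dck, 0.52 for Dctpp1, -0.55 for Samhd1 and -0.22 for Rrm2b. The share of cells in S phase and the RNA per cell cannot be told apart in these bulk cultures. In the study's own growth assay, AxLN sub-clones grew faster than those of MFP, AxLN-LuM and tail vein lung metastases. How that growth relates to the lower S phase RNA in AxLN was not tested.

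Hdac11, the histone deacetylase that the study ties to the node sub-clones, was highest among the groups in AxLN, where Rrm2 was lowest. Its relative level was 1.59, 1.64 and 1.28 in the 3 AxLN sub-clones in use, 0.28 and 0.62 in MFP, -0.39, 0.36 and 0.35 in AxLN-LuM 1 and 0.41, 1.37 and 1.10 in TV-LuM. The 2 sub-clones marked removed had 2.43 (AxLN-LuM 5 day 14, the lowest in Rrm2) and 0.07 (AxLN tumor 1 day 14). TV-LuM 1 day 38 had Hdac11 in the AxLN range, with Rrm2 at -0.43. AxLN differed from the mean of both groups by 1.23 for Hdac11 (SE 0.20, adjusted p = 0.28), and its intensities are low, with parental means of 26.6 and 27.4.

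**Figure D4:**
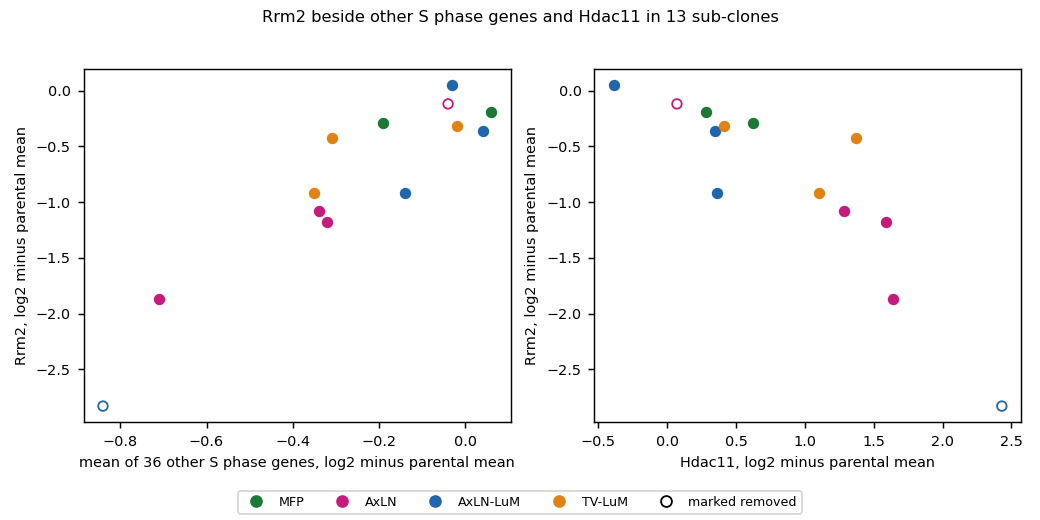
Relative level of Rrm2 (vertical axis, log2 minus the parental mean) against the mean of 36 other S phase genes (left) and against Hdac11 (right) in 13 sub-clones, colored by group, with sub-clones marked removed as open circles. Rrm2 is lowest, at -2.83, where the S phase mean is lowest (-0.84) and Hdac11 highest (2.43).

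The neighboring pathways gave a mixed picture, and none of their genes was called by limma in AxLN against the mean of AxLN-LuM and MFP. Of 17 genes of purine and pyrimidine de novo synthesis 15 were measured, with 11 lower and 4 higher in AxLN and a median difference of -0.20. The largest were in Cad (-0.37, SE 0.12), which opens pyrimidine synthesis, Umps (-0.32, SE 0.12), which closes it, Impdh1 (-0.30, SE 0.16), of guanine nucleotide synthesis, and Prps1 (-0.25, SE 0.18), which makes the ribose donor. In the folate cycle that feeds Tyms, 4 genes were measured, and 2 were lower (Mthfd1 -0.47, SE 0.17, and Shmt1 -0.26, SE 0.15, the cytosolic enzymes) and 2 higher (Mthfd2 0.46, SE 0.24, and Shmt2 0.09, SE 0.16, the mitochondrial ones).

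Other salvage, interconversion and clearance genes numbered 16 above the filter, with 12 lower and 4 higher. Those with the largest differences were Cmpk2 (0.68, SE 1.13), a mitochondrial kinase induced by interferon, Ada (-0.55, SE 0.28), which clears deoxyadenosine, Tk2 (0.43, SE 0.14), the mitochondrial thymidine kinase, and Nudt1 (-0.33, SE 0.19), which clears oxidized purines. Tk2 thus had the opposite sign to Tk1. In TV-LuM minus AxLN 13 of these 16 genes were higher, with a median difference of 0.34 where all genes had 0.00, and 8 of them had an unadjusted p under 0.05, where 13.3% of all genes had one. The same comparison had median differences of 0.13 for de novo synthesis, 0.01 for the folate cycle, 0.19 for the S phase genes (33 of 36 higher, 5 with an unadjusted p under 0.05), -0.02 for the regulators and reductants, 0.01 for the p53 targets and -0.65 for the interferon genes (11 of 11 lower, 0 with an unadjusted p under 0.05), and limma called 0 genes of any of these lists. Of 10 measured regulators and reductants of ribonucleotide reductase 8 were lower in AxLN, E2f8 among them, with E2f7 at -0.58 (SE 0.14) and E2f1 at -0.44 (SE 0.15). Hdac11 belongs to this list too, and its difference, the largest of the list, went the other way (1.23, SE 0.20).

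Of 10 p53 targets above the filter, 5 were higher and 5 lower in AxLN, with Trp53inp1 at 1.29 (SE 0.29), Sesn2 at 1.02 (SE 0.28) and Bbc3 at 0.70 (SE 0.20) and with Cdkn1a, the cell cycle inhibitor, at -0.50 (SE 0.52). Rrm2b, itself such a target, was at -0.15 (SE 0.11) in the same comparison. Neither the p53 status of these cells nor p53 activity was examined here, so these values are not a readout of p53. Interferon response genes, a group to which Samhd1 is often counted, were higher in AxLN for 11 of 11 measured, with Usp18 at 1.81 (SE 0.96), Irf7 at 1.36 (SE 1.02), Bst2 at 0.92 (SE 0.70) and Isg15 at 0.61 (SE 0.49). Their SEs were large, and 0 of 11 had an unadjusted p under 0.05.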

How the data were processed

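RNA of 48 cultures was hybridized to Affymetrix Mouse Gene 2.1 ST arrays. The authors ran RMA per plate in Affymetrix Expression Console (submitters' processing notes and the study's methods) and scaled the plates to each other, which can leave plate effects in single probe sets. Deposited values are linear intensities between 1.11 and 10561.01. Array medians run from 8.53 to 9.15. Log2 values were computed here. Of 41345 probe sets, 23521 have 1 gene symbol and were used, and the brightest stood for a gene. RMA values carry no background flag, and the number of sub-clones limits the precision.

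The labels name the plate of part of the arrays. For 36 it came from the column order (24 arrays per plate), which the values bore out: slopes on the plate difference of the parental arrays, over 2000 probe sets, did not exceed -0.1264 on plate 1 and reached 0.1666 or more on plate 2. The parental mean of the plate was subtracted and arrays were averaged per sub-clone. No pair of arrays was identical (0 pairs). Groups were compared with limma 3.58.1 (lmFit, eBayes) in R 4.3.3 over 11565 genes, on 8 sub-clones of MFP, AxLN and AxLN-LuM (5 residual degrees of freedom), or on 11 sub-clones and 2 parental lines, with Benjamini-Hochberg adjustment and calls at an adjusted p under 0.05. The parental lines were compared on 8 arrays with plate as a covariate. The limma step was tested on simulated data. Other steps used Python 3.11.15, numpy 2.4.6, pandas 2.3.3, scipy 1.17.1 and matplotlib 3.10.9.

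The 9 members and all gene lists were chosen with earlier results of these data known. Named are all members, Hdac11, up to 4 genes per list with the largest difference in AxLN minus the mean of AxLN-LuM and MFP (E2f8 is in 2 lists), and the 5 genes most correlated with Rrm2, Tyms and Samhd1. Alternatives were no baseline, a baseline from the own parental line, quantile normalization, a plate term in the fit, all arrays, arrays as replicates with and without a block, other filters, the mean of all probe sets, and leaving out each sub-clone. Adding each sub-clone marked removed, and both non-overlap alternatives, were chosen after seeing the data.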

Additional observations from a re-analysis of the deposited data

Results flagged for a closer look

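Of 36 groups of 4 sub-clones or arrays examined for a value far from the others, 3 had one, where chance gives about 1 in 20. AxLN-LuM 5 day 14 was far below the other AxLN-LuM sub-clones for Rrm1, at -0.71, and for Tk1, at -2.43. AxLN-LuM 1 day 43 was far above the others of its group for Dctpp1, at 0.47.

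The sub-clones marked removed were used in no main comparison. In AxLN-LuM 5 day 14 all 3 arrays lay below every parental array for Rrm1 (-0.71), Rrm2 (-2.83), Tyms (-1.26), Tk1 (-2.43), Dut (-0.92), Dck (-0.76) and Dctpp1 (-0.27), and above every parental array for Rrm2b (0.56) and Samhd1 (0.70). In AxLN tumor 1 day 14 they lay below every parental array for Tyms (-0.11) and Tk1 (-0.36), and above for Rrm1 (0.17) and Samhd1 (0.32).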

How the results depend on the processing

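Genes called depended on the unit of replication and on how the plate was handled, and the cause was not tested. The plate covariate also changed the units, since MFP tumor 1 and the parental lines counted once per plate. Its counts therefore do not show the part of the plate alone. With plate as a covariate 9 genes were called for AxLN minus MFP, 111 for AxLN-LuM minus AxLN, 21 for AxLN-LuM minus MFP, 161 for AxLN minus the mean of both, 45 for TV-LuM minus AxLN and 255 for sub-clones minus parental lines, against 0 each. Arrays as replicates, which treats cultures of 1 sub-clone as independent, gave 2195, 3424, 1003 and 3240 for the first 4 of these, and 3341 for TV-LuM minus AxLN-LuM, 3549 for TV-LuM minus AxLN and 2995 for sub-clones minus parental lines. With a random block for the sub-clone (correlation 0.757) these were 98, 532, 34, 494, 466, 656 and 157. The replicate numbers do not pair the samples (median r of same-numbered arrays 0.009), and with a replicate block the counts were 1837, 3167, 786, 2946, 3218, 3413 and 2607. The own parental line as baseline called 1 gene for AxLN-LuM minus MFP, and no filter left 501 between the parental lines, where leaving out 1 array gave 676 to 866. Leaving out 1 sub-clone gave 0 to 6 genes for AxLN-LuM minus AxLN (6 without AxLN-LuM 1 day 36), 0 to 3 for TV-LuM minus AxLN-LuM (3 without TV-LuM 1 day 14) and 0 to 7 for TV-LuM minus AxLN (7 without TV-LuM 2 day 14).

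Members that changed sign were these. With AxLN tumor 1 day 14, Dctpp1 in AxLN minus MFP was 0.001, Rrm2b in AxLN-LuM minus AxLN -0.056 and Dck in TV-LuM minus AxLN -0.001, the last also with all arrays. Rrm2b in AxLN-LuM minus AxLN was -0.028 with the own parental line. With all arrays, and with AxLN-LuM 5 day 14 alone, AxLN-LuM minus AxLN was -0.109 and -0.01 for Tk1 and 0.022 and 0.037 for Samhd1. AxLN-LuM minus MFP was -0.087 and -0.082 for Rrm1, -0.098 and -0.114 for Tyms and -0.363 and -0.352 for Tk1. TV-LuM minus AxLN-LuM was 0.044 for Rrm1, 0.458 for Rrm2 and 0.229 for Tyms in both settings. With the mean of all probe sets Dut was -0.118 in mCh/rL minus GFP/fL. Leaving out 1 sub-clone turned Samhd1 in AxLN minus MFP (-0.119 to 0.403), in AxLN-LuM minus AxLN (-0.313 to 0.054), in AxLN-LuM minus MFP (-0.217 to 0.305) and in AxLN minus the mean of both (-0.01 to 0.251). It also turned Rrm2b in AxLN-LuM minus AxLN (-0.065 to 0.073), Rrm2 (-0.4 to 0.084) and Dut (-0.213 to 0.193) in AxLN-LuM minus MFP, Rrm2 (-0.401 to 0.083), Tk1 (-0.054 to 0.091) and Dctpp1 (-0.262 to 0.103) in TV-LuM minus AxLN-LuM, Dut (-0.006 to 0.227) and Dck (-0.061 to 0.394) in TV-LuM minus AxLN, and, by array, Rrm1 (-0.034 to 0.01) and Dck (-0.024 to 0.048) between the parental lines. None of these was called.

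The r with Rrm2 that no longer passed were, over the 11 sub-clones not marked removed, 0.62 for Dut and -0.49 for Samhd1. Without the 2 farthest they were 0.58 for Rrm1, 0.63 for Tyms, 0.37 for Tk1, 0.42 for Dut, 0.70 for Dck and -0.25 for Samhd1, within plate 1 0.52, 0.67, 0.18, 0.61, 0.82 and -0.32, and within plate 2 0.55 for Dck. Rrm2b turned to 0.38, 0.44 and 0.37 in the first 3 of these settings. With both sub-clones marked removed, members without overlap numbered 0 in each comparison. Of all genes, 0.112% to 7.31% were without overlap in a given direction, so 0 members is near the background.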
